A study of Caenorhabditis elegans with 2 samples.

Results

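Intronic peaks outside promoters were peaks inside a gene and away from its start, called in chromatin recovered with the tagged C. elegans protein F33H1.4. They were taken from the list of 3250 peaks that the authors made from both replicates of this chromatin immunoprecipitation sequencing (ChIP-seq) experiment, called the combined list here. A peak was kept when its summit lay inside a protein-coding gene and in no exon of that gene. It also had to avoid every promoter window, which spans 1000 bp before and 200 bp after a protein-coding 5' end, and to lie more than 200 bp from any tRNA, snoRNA or snRNA gene. Of the 3250 summits, 743 lay in an intron. Promoter windows took 282 of these, and another 123 lay beside small structural RNA genes (71 tRNA, 37 snoRNA and 15 snRNA), which left 338. These 338 intronic peaks covered 315 non-overlapping regions in 295 introns of 274 genes. Of the 338 summits, 12 lay in an exon of another gene, and 10 lay inside a gene of class ncRNA. By the replicates' own lists, the same rule gave 174 peaks in replicate 1 and 261 in replicate 2.

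The study held 1 group, whole young adults of strain RW12303 at 62.5 hours, synchronised by starving bleached animals at the first larval stage. Their F33H1.4 gene on chromosome II carried a CRISPR insertion (allele st12303) that adds TY1, EGFP and 3xFLAG tags to the protein, and the immunoprecipitation was directed at GFP. There were 2 biological replicates and no other condition, so no comparison between groups can be made. Chromatin of every tissue was pooled, so a peak cannot be assigned to a cell type, and binding in few cells cannot be told apart from weak binding in many. No control library was analysed here, and open chromatin, strong transcription and binding of the protein cannot be told apart at these places.

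The annotation gives F33H1.4 a domain of the C2H2 zinc finger type, a small zinc-holding fold that in many proteins reads DNA letters. Introns are transcribed with the gene and cut out of its RNA, and in C. elegans many are short, with little room for anything beyond the splice signals. Longer introns can hold enhancers, promoters of nested or internal transcripts, small RNA genes and copies of repeated sequence. A ChIP-seq peak in an intron can therefore reflect any of these, and the peak list alone does not say which.

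The sequence at the summits is shown first, since the same short words recur in many of these peaks. The words were taken from the promoter peaks and not from the intronic ones. All 2080 words of 6 letters, counted on both strands, were ranked by the share of the 2030 promoter summit windows that held them minus the share in flanking windows. The first word was GAGACC (reverse complement GGTCTC), and the highest word that shared no 4 letters with it was GGCGCA (reverse complement TGCGCC), the second word here. The 10 leading words overlap and fall into longer strings. Words that overlap the first are CGAGAC, then GCGAGA, and also AGACCC. Words that overlap the second are AGGCGC, then AAGGCG, as well as AAAGGC, and on the other strand CCTTTA. The word ACCGTA stands apart. Windows that reach 50 bases to each side of the summits of 8 of the strongest intronic peaks are given on the plus strand of WBcel235 (the RefSeq sequence of the assembly that the lists call ce11), with each of the 10 words in capitals.

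C44B9.2, chrIII:10877703-10877803: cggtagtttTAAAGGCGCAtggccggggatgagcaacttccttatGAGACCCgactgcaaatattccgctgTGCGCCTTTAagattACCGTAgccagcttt
spds-1, chrII:12808921-12809021: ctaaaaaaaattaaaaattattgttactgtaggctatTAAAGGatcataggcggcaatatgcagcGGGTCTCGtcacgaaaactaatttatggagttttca
mdt-19, chrIII:2598588-2598688: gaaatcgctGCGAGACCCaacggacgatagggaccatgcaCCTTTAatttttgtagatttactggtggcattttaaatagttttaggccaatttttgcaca
W01D2.3, chrII:14801120-14801220: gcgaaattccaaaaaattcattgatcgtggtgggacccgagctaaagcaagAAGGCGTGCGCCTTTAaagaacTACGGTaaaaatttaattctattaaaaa
fnip-2, chrIV:2223267-2223367: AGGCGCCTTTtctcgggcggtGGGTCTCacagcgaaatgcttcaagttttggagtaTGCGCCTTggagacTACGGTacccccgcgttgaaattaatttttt
ckk-1, chrIII:5637443-5637543: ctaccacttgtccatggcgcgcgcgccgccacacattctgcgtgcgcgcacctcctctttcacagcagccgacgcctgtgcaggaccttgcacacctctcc
lit-1, chrIII:13715062-13715162: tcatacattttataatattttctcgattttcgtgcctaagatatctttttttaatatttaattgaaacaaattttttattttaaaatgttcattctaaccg
lmd-3, chrV:8424987-8425087: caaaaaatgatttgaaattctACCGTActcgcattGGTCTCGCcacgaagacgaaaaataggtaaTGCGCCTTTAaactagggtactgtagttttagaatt

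C44B9.2, fnip-2 and lmd-3 held both words within 50 bp of the summit, spds-1 and mdt-19 the first alone and W01D2.3 the second alone. The windows of ckk-1 and lit-1 held none of the 10 words. That of ckk-1 was rich in G and C (65.3%) and that of lit-1 poor (19.8%). Around the first word further letters recurred in many of the stretches. In stretches of 40 bases aligned on it, with GAGACC in capitals and the strand of the word given, 6 of the 7 shown had the letters tcg 7 to 5 bases before it, and C44B9.2, the strongest, did not. They are the 7 of 10 aligned stretches whose peaks lay on no tandem array of the word.

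C44B9.2, plus strand, chrIII:10877731-10877770: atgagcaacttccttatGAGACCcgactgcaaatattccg
spds-1, minus strand, chrII:12808970-12809009: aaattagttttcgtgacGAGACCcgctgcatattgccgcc
mdt-19, plus strand, chrIII:2598582-2598621: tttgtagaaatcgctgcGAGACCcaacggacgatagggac
fnip-2, minus strand, chrIV:2223272-2223311: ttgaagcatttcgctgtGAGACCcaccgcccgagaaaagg
lmd-3, minus strand, chrV:8425005-8425044: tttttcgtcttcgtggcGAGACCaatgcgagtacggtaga
M01H9.5, plus strand, chrIV:4468090-4468129: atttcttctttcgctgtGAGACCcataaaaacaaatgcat
vps-50, minus strand, chrIII:10870342-10870381: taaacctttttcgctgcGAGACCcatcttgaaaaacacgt

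Over the 129 intronic peaks with the first word, letters shared by at least 50% of them spelled TCGTGGC directly before GAGACC and CA after it. The 553 promoter peaks with the word also had TCGTGGC before it and a C after it. Around the second word the shared letters were TTTAAA before and CACCTTTTT after in 66 intronic peaks, and TTAAA before in 461 promoter peaks. The letters shared in promoter peaks were thus also shared in intronic peaks at these positions.

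The first word was found in 129 of 338 intronic summit windows (38.2%). The same word was in 9.91% of windows centred 300 bp to either side and in 2.73% of 232171 windows of equal length tiled over eligible intron. Flanking windows were not limited to intron. Centred 500 bp away, they held the word in 6.36% of cases. Eligible intron is used here for the 27.6 Mb of genome where a summit would have met the rule. In promoter summit windows the share was 27.2%, against 3.30% in their flanks. The second word was in 66 intronic windows (19.5%), in 3.70% of flanks and 1.79% of tiled windows, and in 22.7% of promoter summits. ACCGTA, which overlaps neither, was in 13.9% of intronic summits, 2.96% of flanks, 3.03% of tiled windows and 18.9% of promoter summits. Each of the other 7 leading words was also more frequent at intronic summits than in flanks, by between 14.1 and 24.4 percentage points. The first word lay a median of 10.5 bp from the summit and within 25 bp in 97 of the 129 windows, the second a median of 20.5 bp away.

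**Figure D1:**
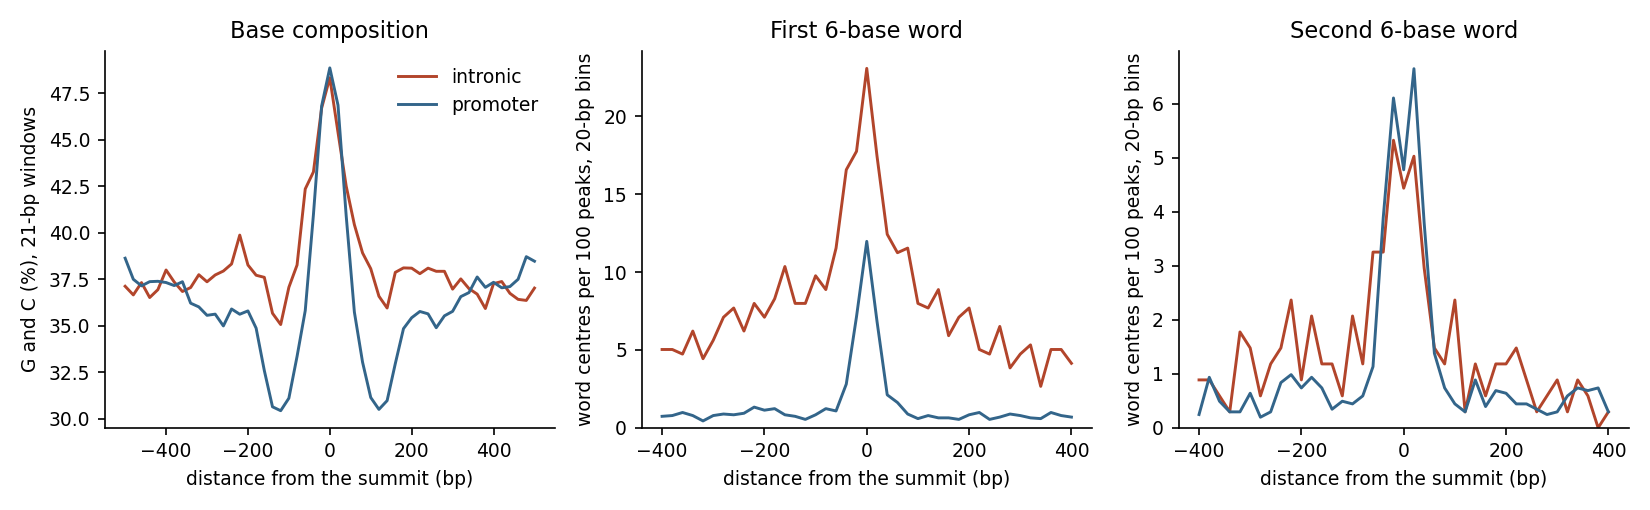
Share of G and C in 21-bp windows (left) and centres of the first word GAGACC (middle) and second word GGCGCA (right) per 100 peaks in 20-bp bins, by distance from the summit in bp, for 338 intronic and 2030 promoter peaks. G and C and the first word are highest at the summit in both classes. The second word is highest 20 bp to one side of it, at 5.33 per 100 intronic and 6.65 per 100 promoter peaks, against 4.44 and 4.78 at the summit. Away from the summit the first word stays more frequent around intronic than around promoter peaks.

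Both words occurred together in 35 intronic peaks (10.4%), the first alone in 94, the second alone in 31 and neither in 178 (52.7%). Intronic peaks with the second word ranked higher by signal. The median rank percentile of signal within the combined list was 56.4 with the second word alone and 50.4 with both, against 35.3 with the first alone and 26.7 with neither. Promoter peaks had another order, 66.6 with the second word alone and 83.7 with both, against 81.0 with the first alone and 47 with neither. Signal is the strength that the authors' peak caller gave each peak, and it has no stated scale between lists. With intronic peaks divided into 4 equal parts by signal, from the strongest to the weakest the share with the second word went from 36.5% through 20% and 13.1% to 8.33%. For the first word the shares were 47.1%, 41.2%, 40.5% and 23.8%. Both replicates had a peak at 19 of the 31 with the second word alone and at 66 of the 178 with neither word.

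Summits were richer in G and C than the sequence beside them. Intronic summit windows were 45.1% ± 10.1 G and C (SD over 338 windows), flanks 37.5% ± 10.3 and tiled eligible intron 32.7% ± 8.80. Promoter summits, at 44.8% ± 8.06, were close to the intronic ones. The median difference between a summit and its own flanks was 6.93 percentage points, with the summit higher in 254 of 338. In wider windows of 100 bp to each side it was 3.73. Of 20 motifs searched by their letters on both strands, GCGCGC was in 7.40% of intronic summits against 1.04% of flanks and 0.856% of tiled windows, and it differed most upward from the flanks. The GC box GGCGGG (12.1%, 8.88% and 2.09%) and GAGAG (14.5%, 11.8% and 9.36%) had higher shares at summits, but the exact 95% intervals of the summits, 8.85% to 16.1% and 10.9% to 18.7%, held the shares of the flanks. Lower at summits than in flanks were the splice acceptor string TTTTCAG (4.44% against 13.0%), TTTTTTTT (5.03% against 11.5%), the CHR element TTTGAA (22.5% against 28.8%), TATAAA (3.25% against 7.69%) and the GATA sites TGATAA (3.25% against 7.10%) and AGATAA (2.66% against 6.07%). In tiled windows these 6 were at 13.1%, 19.5%, 35.3%, 12.5%, 8.49% and 5.69%. For the other 11 motifs the difference from flanks lay between -3.85 and 1.78 percentage points. They were the E-box CANNTG, which can contain the form CACGTG, the strings ATTGG, then GTAAGT at splice donors, TTTCCCGC and the related GCGCGAA, the string GTTCGA, the bZIP sites TGACGTCA and also TGACTCA, the forkhead site GTAAACA, and the repeat ACACACAC. A match is a string of letters and not a measured site.

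A distinct set of intronic peaks sat on tandem arrays of the first word. In 46 of 338 (13.6%) there were 3 or more copies on 1 strand within 150 bp of the summit, against 15 of 2030 promoter peaks (0.739%). The copies stood 15 bp apart in 356 of 414 measured spacings and 30 bp apart in 51. The largest number within 150 bp was 20, at pacl-1, followed by 19 at let-23, which encodes the EGF receptor, and 18 at sax-7, a cell adhesion protein of the L1 family, and at W05F2.4. The summit windows of the first 3 show the unit, with each GAGACC or its reverse complement in capitals on the plus strand.

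pacl-1, chrV:16274155-16274255: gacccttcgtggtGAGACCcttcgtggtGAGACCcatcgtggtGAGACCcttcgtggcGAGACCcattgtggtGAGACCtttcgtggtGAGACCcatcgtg
let-23, chrII:9202258-9202358: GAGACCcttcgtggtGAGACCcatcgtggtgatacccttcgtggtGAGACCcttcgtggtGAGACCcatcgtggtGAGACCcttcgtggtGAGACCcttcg
sax-7, chrIV:8073801-8073901: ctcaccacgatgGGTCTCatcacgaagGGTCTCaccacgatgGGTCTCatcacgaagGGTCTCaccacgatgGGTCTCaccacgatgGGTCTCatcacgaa

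Read on the strand of the word, most copies shown at pacl-1 and let-23 are preceded by tcgtggt, and those at sax-7 by tcgtggt or tcgtgat. Of the 7 stretches above, lmd-3 has tcgtggc, and the array windows are among the 129 whose shared letters are given there. Arrays of this kind were rare in eligible intron, and many carried a peak. Copies on 1 strand no more than 60 bp apart were joined into clusters. A cluster counted as overlapped when any base from its first to its last copy lay under a peak. Clusters with more copies are longer, so a peak can touch them at more bases. Of 51 clusters with 5 or more copies, 29 overlapped a peak of the combined list (56.9%, exact 95% interval 42.2% to 70.7%). Of 7103 single copies, 2.03% did, and of 92 pairs 2.17%. Clusters of 4 copies overlapped a peak in 4 of 10 cases and clusters of 3 in 1 of 16. Counted as bases, 0.351% of eligible intron lay under a peak.

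**Figure D2:**
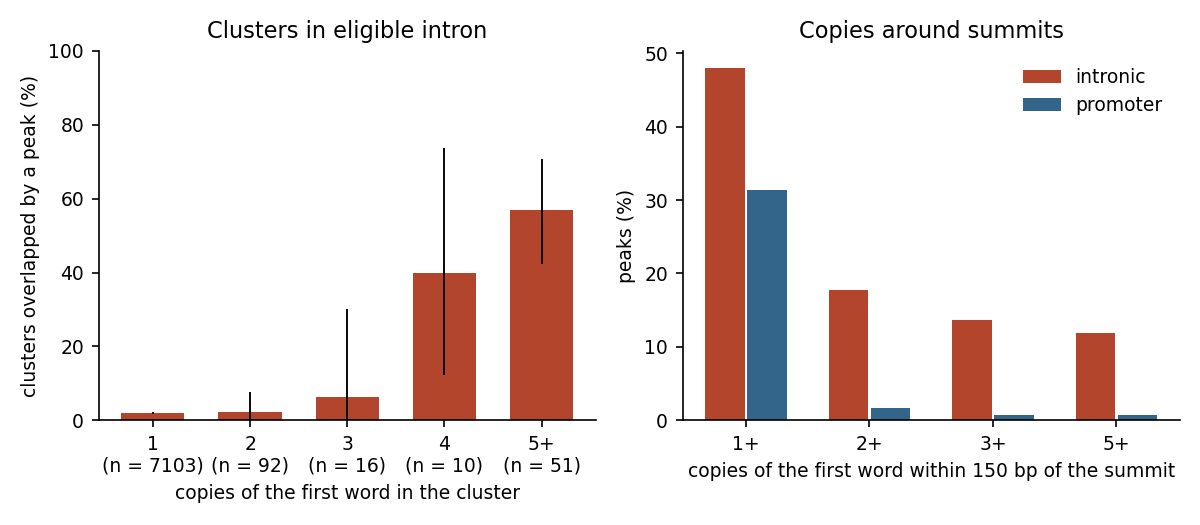
Left, share of clusters of the first word in eligible intron that a peak of the combined list overlaps, in percent, by number of copies, with exact 95% intervals. Right, share of 338 intronic and 2030 promoter peaks with at least 1, 2, 3 or 5 copies on 1 strand within 150 bp of the summit. Peaks cover 56.9% of clusters with 5 or more copies and 2.03% of single copies.

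The 46 array peaks lay in 31 genes and in long introns, with a median intron length of 3282.5 bp. The strongest was in zyg-9, a microtubule-binding protein of the mitotic spindle. Its signal was 536 in the combined list, 199 in the list of replicate 1 and 350 in that of replicate 2, and 6 copies lay around its summit. The next were at cua-1, a copper-transporting ATPase (514 in the combined list, 276 in replicate 1 and 231 in replicate 2, 16 copies), ufbp-1 (477, 5 copies), sax-7 (450, 18 copies) and par-1, a polarity kinase (424, 7 copies). Their signal was ordinary for intronic peaks, with a median of 119 against 117.7 for all 338. A peak of both replicates overlapped 23 of the 46.

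Arrays are repeated sequence, and the counts show it. All 46 array windows were soft-masked as repeats or low-complexity sequence over at least 50% of their length, and 42 held a stretch of 50 bases found more than once in the genome. Among all intronic peaks 186 of 338 windows were soft-masked to that extent (55.0%), against 477 of 2030 promoter windows (23.5%). Intergenic peaks were nearer to the intronic ones, with 46.9% of 458 windows. No repeated stretch of 50 bases was held by 68.3% of intronic, 71.0% of intergenic and 93.0% of promoter windows. Copies of the first word were not counted around intergenic summits. By bases, the mean soft-masked share was 53.2% over intronic windows and 32.4% over promoter windows, and 51.4% of eligible intron bases were soft-masked. Reads from repeated stretches can align to several places, and how the authors treated such reads is not given in the sources used here. The part of this in the array peaks was not tested. Without the 46 array peaks the first word was in 29.8% of the remaining 292 intronic windows and 6.85% of their flanks. In the 231 windows with no repeated 50-base stretch it was in 34.6%, and in 7.58% of their flanks. For the second word the shares in those 231 were 25.5% and 3.68%.

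Intronic peaks were weaker than promoter peaks. Their signal ran from 3.93 to 3339 with a median of 117.7 and quartiles of 82.4 and 185, while promoter peaks had a median of 217. By rank within the combined list, the median percentile was 35.3 for intronic, 42.9 for intergenic and 60.7 for promoter peaks. Peaks in exons or non-coding genes were lower, at 18.4, and those at small RNA genes were at 36.7. There were 235 intronic peaks in the weaker 50% of the list (69.5%) and 9 among the strongest 10%.

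Replicate support differed with that strength. A peak of both replicates overlapped 141 of 338 intronic peaks (41.7%, exact 95% interval 36.4% to 47.2%, counting error alone). Over the whole combined list the share was 60.1%, over promoter peaks 69.0% and over peaks in exons or non-coding genes 31.98%. Neighbouring summits can be overlapped by the same replicate peak. Replicate 2 alone overlapped 89, replicate 1 alone 23 and neither 85. Over all 3250 peaks of the combined list these counts were 623, 191 and 482. With 50% reciprocal overlap in place of 1 bp the share of intronic peaks supported by both replicates was 30.2%. With the combined list divided into 4 equal parts by signal, from weakest to strongest, intronic peaks were supported by both replicates in 7.87%, 35.2%, 85.1% and 100% of cases, and promoter peaks in 11.5%, 39.7%, 92.0% and 99.9%. The intervals of the 2 classes overlap in each of the 4. In the list of replicate 1, 81.0% of its 174 intronic peaks were overlapped by replicate 2, and 53.6% of the 261 in replicate 2 were overlapped by replicate 1.

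**Figure D3:**
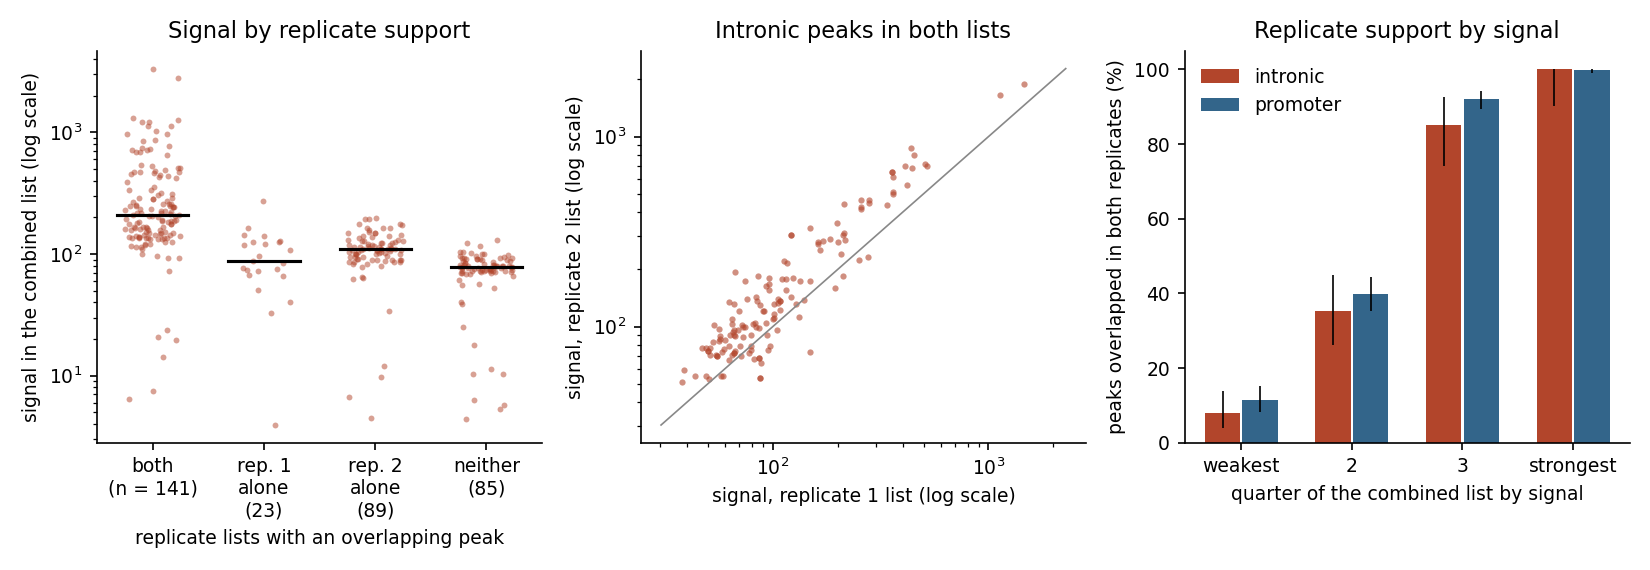
Signal of the 338 intronic peaks in the combined list by which replicate lists overlap them, with medians as lines (left, log scale), signal in replicate 1 against replicate 2 for the 141 found in both with the line of equality (middle, log scales), and share supported by both replicates in 4 equal parts of the combined list by signal with exact 95% intervals (right). Of the intronic peaks, all 36 in the strongest of the 4 are found in both replicates, and 10 of 127 in the weakest.

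In the 141 intronic peaks found in both lists, the signal of replicate 2 was a median 1.37 times that of replicate 1 and the higher of the pair in 118. In the 1400 promoter peaks found in both, the median ratio was 1.48 and replicate 2 was the higher in 1280. The offset was thus not particular to intronic peaks. How the 2 lists are scaled is unknown, and no difference in binding is read from it. Spearman's rho between the lists was 0.850 across the 141 intronic peaks and 0.954 across the 1400 promoter peaks. This is a description in which neighbouring summits can share 1 replicate peak. The strongest intronic peaks outside the both-replicate set were at let-23 (signal 275), col-52, a collagen (163), and ttc-7 (143) for replicate 1 alone. For replicate 2 alone they were at kap-1, a kinesin-associated protein (199), Y56A3A.7 (194) and mekk-3 (192). With neither replicate they were at Y75B8A.31 (131), D1044.6 (122) and Y38F2AR.3 (117). Before thresholding, the lists of replicates 1 and 2 overlapped 329 and 337 of the 338. The conservative list overlapped 263 (77.8%).

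The strongest intronic peak lay in the last intron of pals-1, a member of a family named for the human gene ALS2CR12, 1646 bp from its nearest 5' end. Its signal was 3339 in the combined list (rank 21 of 3250), 1458 in replicate 1 and 1902 in replicate 2. The next was in the last intron of C44B9.2, annotated with a domain of the Lgl family, at 2774 (rank 36), 1126 and 1650. The third strongest was well below these. It lay in nhr-64, a nuclear hormone receptor, at 1312 in the combined list, 438 in replicate 1 and 873 in replicate 2.

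The other peaks above 1000 were in spds-1, a spermidine synthase (1272, and 451 and 804 in replicates 1 and 2), mod-5, the serotonin reuptake transporter (1219, 510 and 716), unc-94, a tropomodulin that caps actin filaments (1211, 517 and 700.3), mdt-19, a Mediator subunit (1128, 410 and 703), Y47G6A.31, with a RING domain (1123, 442 and 681), and znf-236, with C2H2 fingers (1032, 358 and 653). In each of these 6 the value was higher in replicate 2. The hosts of the following peaks had signals from 976 down to 683 in the combined list: pph-7, F23C8.8, W01D2.3, fnip-2, ckk-1 (a calmodulin-dependent kinase kinase), lit-1 (a Nemo-like kinase of Wnt signalling), lmd-3, a second summit in znf-236, calu-2 (a calumenin), M01H9.5 and ret-1 (a reticulon). The 25 strongest ended with frm-4 (652), zyg-9, vps-50 (524), cua-1 and Y71H2AM.6 (510.3). All 25 were found in both replicates, and 24 had the higher value in replicate 2, cua-1 being the exception. Most promoter peaks found in both lists also had the higher value in replicate 2 (1280 of 1400). Of the 25, 6 had a host with a promoter peak: C44B9.2, mdt-19, znf-236 with both summits, zyg-9 and Y71H2AM.6.

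Introns with several peaks were few. Of 274 host genes 219 held 1 peak, 49 held 2 and 6 held 3 or more. W05F2.4, annotated as an E3 ubiquitin ligase, had 6, all in intron 22 of 38, over 3073 bp and with signals from 93.2 to 242. Each of the 6 windows was soft-masked along its whole length, and each lay on an array of the first word with 15 to 18 copies. oat-1, an organic anion transporter, held 3 in 1 intron (100.3, 167 and 266), all found in both replicates. tir-1, the SARM homolog of innate immune and neuronal signalling, held 3 in its first intron (106, 113 and 125), none found in both. Y56A3A.7 held 3 in 2 introns (194, 250 and 289). smg-6, an endonuclease of nonsense-mediated decay, and dhhc-7, a palmitoyltransferase, held 3 each in 3 introns, with signals from 82.6 to 164, and none of these 6 was found in both replicates.

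Density was computed per Mb of eligible intron, with exact Poisson 95% intervals for counting error. It was 12.3 per Mb (11.0 to 13.6), against 77.5 per Mb (74.1 to 80.9) of promoter window, a ratio of 0.158 (0.141 to 0.178). With replicate 1's own list the intronic density was 6.31 per Mb, with that of replicate 2 it was 9.46, and in the stronger 50% of the combined list 3.73. Chromosome III had the highest density, 21.5 per Mb (17.5 to 26.2, 98 peaks). Chromosomes I, IV and II followed at 15.6, 14.9 and 12.7, with intervals that overlap each other. Those of I (12.4 to 19.5) and IV (11.6 to 18.8) also overlap that of III, and that of II (9.39 to 16.8) does not. Chromosome V had 7.01 (4.85 to 9.79) and the X 1.95 (0.890 to 3.70, 9 peaks). The X to autosome ratio of densities was 0.136 (0.0616 to 0.261) for intronic and 0.110 (0.0777 to 0.152) for promoter peaks, so the intervals of the 2 classes overlap. Between chromosomes III and V the intronic ratio was 3.07 (2.06 to 4.68). The central sections, when each chromosome is divided into 3 equal ones, held 24.3% of intronic peaks and 27.7% of eligible intron.

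**Figure D4:**
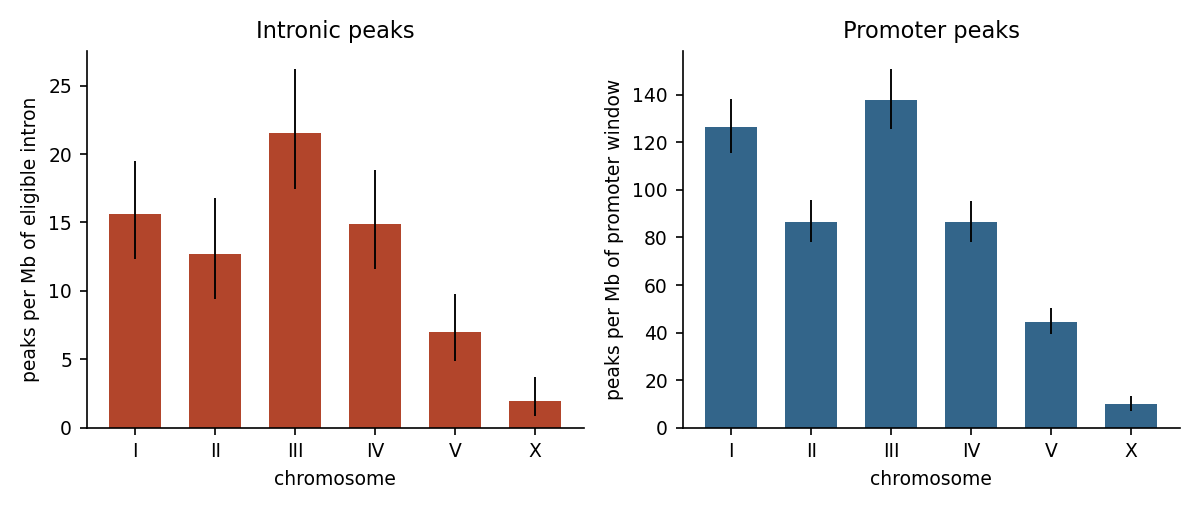
Intronic peaks per Mb of eligible intron (left) and promoter peaks per Mb of promoter window (right) by chromosome, with exact Poisson 95% intervals. The order is led by III and ends with V and X in both panels.

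The 9 peaks on the X were in 8 genes. The strongest was in elk-2, at 248 in the combined list, 121 in replicate 1 and 144 in replicate 2. It was followed by scd-1 (168, 66.3 and 96.1), which lay on an array with 10 copies of the first word. mom-1, a Porcupine homolog that acts in Wnt secretion, came next at 101.3, found in replicate 2 alone at 64.6. The other 6 ran from 67.5 to 92.7. Of the 9, 3 were found in both replicates, in elk-2, scd-1 and gcy-36, the last named after its value was seen. The gcy-36 peak (92.7) also lay on an array, with 14 copies.

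Short introns held few peaks. In introns under 250 bp, which make up 14.4% of eligible intron, there were 11 peaks, 2.73 per Mb (1.36 to 4.88). In the 3 length classes from 250 bp to under 2000 bp the density was between 11.9 and 13.7 per Mb. Introns of at least 2000 and under 5000 bp had 93 peaks and 19.9 per Mb (16.1 to 24.4), and longer ones 9.78 (6.82 to 13.6). The median host intron was 1189 bp, and the median eligible base lay in an intron of 960 bp.

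Along the intron, the peaks were more frequent towards the middle. In 5 equal parts of the intron from its 5' to its 3' end lay 14.5%, 26.0%, 28.7%, 19.2% and 11.5% of summits, while eligible bases were spread at 20.4%, 21.4%, 20.9%, 19.8% and 17.6%. Within 50 bp of an intron end there were 8 summits (2.37%), where 20.5% of eligible bases lay. A fragment of 200 to 800 bp, the size range in the labels, reaches past an intron end from there, and the exons beside it were outside the rule. By number, the first intron held 66 summits (19.5%, 15.4% to 24.2%) and 20.3% of eligible bases. The second held 19.5% and 15.9%, the third 12.7% and 12.5%, and later introns 48.2% and 51.3%. The rule's promoter window takes away the start of many first introns. With a window from 2000 bp upstream to 500 bp downstream the first intron held 11.6% of summits.

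**Figure D5:**
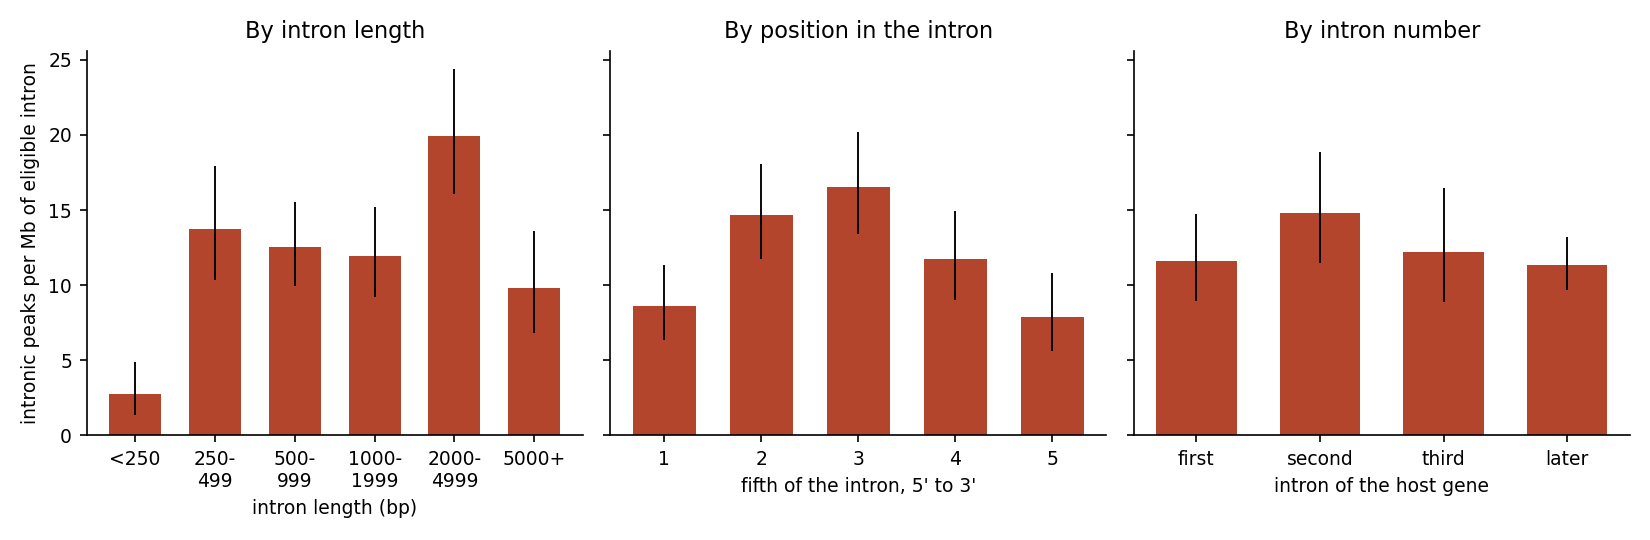
Intronic peaks per Mb of eligible intron by length of the intron in bp (left), by 5 equal parts of the intron from its 5' to its 3' end (middle) and by its number in the gene (right), with exact Poisson 95% intervals. Density is lowest in introns under 250 bp (2.73 per Mb) and in the last of the 5 parts (7.91 per Mb), and the 4 intron numbers have overlapping intervals.

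Summits lay a median of 1321.5 bp downstream of the nearest 5' end of their own host. For 279 (82.5%) the nearest protein-coding 5' end was that of the host, and for 72 the summit lay upstream of the nearest 5' end. Density by distance from the host's nearest 5' end ran from 14.5 per Mb (10.5 to 19.6) under 500 bp to 10.3 (7.57 to 13.8) at 5000 bp or more, with overlapping intervals. At the edges of the rule, the peak just outside a promoter window on its upstream side was in hxk-1, 1002 bp upstream of a 5' end, with a signal of 141. The summit just inside was in ilkp-1, 977 bp upstream of the start of sdhd-1, at 1367. On the downstream side frpr-10 (213 bp, 135) was just outside and nrps-1 (194 bp, 364) just inside. From small RNA genes, ret-1 was 264 bp away (683) and the excluded summit in elf-1 199 bp away (103).

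Genes with an intronic peak often had a promoter peak too. Of 17347 protein-coding genes with eligible intron, 274 held an intronic peak (1.58%) and 2076 had a promoter peak (12%). Among the 274 hosts 84 had one (30.7%, exact 95% interval 25.3% to 36.5%), and they held 102 of the 338 peaks. Counted by sequence, 12.9% of eligible intron lay in genes with a promoter peak. Overlapping genes make this total 28.0 Mb. The density was 28.1 per Mb (22.9 to 34.2) in these genes and 9.67 (8.47 to 11.0) in the others, a ratio of 2.91 (2.28 to 3.69).

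The ratio was higher for weaker than for stronger intronic peaks, a difference that was not tested. With the promoter peaks of the whole list, the ratio was 3.54 (2.67 to 4.67) for the 235 intronic peaks in the weaker 50% of the list and 1.73 (1.01 to 2.81) for the 103 in the stronger 50%. When promoter peaks were also taken from the stronger 50%, 11.7% of the 103 had a host with one, against 8.13% of eligible intron, a ratio of 1.49 with an interval of 0.743 to 2.73. The ratio was 2.31 (1.55 to 3.35) in the list of replicate 1, where 20.7% of peaks had such a host, and 2.55 (1.90 to 3.38) in that of replicate 2. The nearest other summit lay a median of 2021 bp away, and within 1000 bp for 120 peaks (35.5%). It was a promoter peak for 145 and another intronic peak for 125.

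By function, host genes were counted in 17 gene lists, and 1.58% of all genes with eligible intron were hosts. Signalling pathway genes held the most, 6 of 90 with eligible intron (6.67%, exact 95% interval 2.49% to 13.9%). They were lit-1 (736), lin-1, an ETS factor of vulval induction (459), let-23 (275), tir-1 (125), pry-1, an Axin homolog (95.1), and gap-3, a Ras GTPase activator (86.9). Their density was 20.6 peaks per Mb (9.89 to 37.9) against 12.1 over all genes. Nervous system and muscle lists had 3 hosts each, which is 3.53%, 4.11% and 4.48% of their genes against 1.58% of all genes. By sequence their densities, 10.3, 9.85 and 13.9 per Mb, were near the 12.1 of all genes. Among 85 synaptic and channel genes these were mod-5 (1219), unc-104, a kinesin that carries synaptic vesicle precursors (166), and unc-63, an acetylcholine receptor subunit (118). Among 73 axon guidance and adhesion genes they were sax-7 (450), plx-1, a plexin (176), and max-2, a kinase of the PAK class (156). Among 67 muscle genes they were unc-94 (1211), unc-60, an actin-severing cofilin (205), and stn-1, a syntrophin (67.9).

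Chromatin regulators had 2 hosts of 58, lin-9, of the DREAM repressor complex (282), and zfp-1 (89.3). Meiosis genes had 1 of 44, brc-1, the BRCA1 homolog (201), cell cycle genes 1 of 58, zyg-9 (536), and pals genes 1 of 36, pals-1 (3339). Nuclear hormone receptor genes had 3 of 269, nhr-64 (1312), nhr-19 (90.1) and nhr-119 (32.6). Collagen genes had 2 of 125, col-52 (163) and col-72 (158), and chemoreceptor genes 2 of 1286 (0.156%, 0.0188% to 0.561%), sre-45 (206) and srt-52 (76.8). By sequence, collagen genes held 3 peaks at 64.6 per Mb (13.3 to 189), and the 2 in col-52 formed 1 region. Chemoreceptor genes held 3 at 3.37 per Mb (0.695 to 9.84). The chemoreceptor interval leaves out the 12.1 of all genes. The collagen interval does so with the 2 col-52 summits counted separately, and no difference is read from it. Of the collagen peaks, those in col-52 were found in replicate 1 alone and that in col-72 in replicate 2 alone. Both col-52 summits lay on arrays of the first word, with 12 and 16 copies. No host was found among 61 germline and oocyte genes, 47 splicing and RNA-binding genes, 34 ribosomal protein genes, 104 homeobox genes, 234 C-type lectins and 251 F-box genes with eligible intron. A count of 0 allows up to 5.87%, 7.55%, 10.3%, 3.48%, 1.56% and 1.46% of them in that order, by exact intervals. The first 4 of these limits lie above the 1.58% of all genes. By sequence, none of the 6 lists is separated from the 12.1 per Mb of all genes, since the densities that a count of 0 allows run from 14.5 per Mb in homeobox genes upward, with 20.1 in C-type lectins and 26.6 in F-box genes. Ribosomal protein genes hold 0.00359 Mb of eligible intron in all.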

How the data were processed

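The 4 thresholded peak lists and the 2 unthresholded replicate lists were used as the authors deposited them. Per the labels, animals were sonicated to fragments of 200 to 800 bp and the build is ce11. For the aligner, the peak caller and reads that align to several places, the handling is not given in the sources used here. Read depth is unknown. The deposited signal of each peak has no stated scale between lists and was used to rank and describe peaks. The deposited score ran from 830 to 1000 in the thresholded lists. The authors made the combined list from both replicates.

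Ensembl's WBcel235 genes were used, with RefSeq sequence of the same build. An intron is a gap between the merged exons of a gene, and a summit in introns of 2 genes was given to the shorter intron. Overlap means at least 1 bp, with the strongest overlapping replicate peak taken. Word windows extend 50 bp either way from the summit, and flanks are centred 300 bp away, whether or not that place is intron. Coordinates are 1-based. Shares have exact binomial, densities exact Poisson and ratios exact conditional 95% intervals, which cover counting error alone. Peaks are not replicates and there was 1 group of 2 samples, so no test was made.

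The members and gene lists were chosen with earlier results of these data known. Named genes were hosts of the 25 strongest peaks, hosts with 3 or more peaks, up to 4 per list, the 3 strongest on the X and per kind of replicate support, and summits at the rule's edges. Array genes were chosen after their values were seen. Printed windows are those of the 8 strongest peaks outside chromosome I, and of 3 arrays. Aligned stretches come from the 10 strongest peaks outside that chromosome with the first word. Class assignment, overlap and word counting were tested on simulated data. Versions were scipy 1.17.1, numpy 2.4.6, pandas 2.3.3 and matplotlib 3.10.9 under Python 3.11.15.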

Additional observations from a re-analysis of the deposited data

How the results depend on the processing

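Of 107 alternative values for 11 results, 82 stayed within the interval of the reported value (within 1.5 times for the number of peaks). A change of direction was looked for in the G and C difference alone, which kept its direction in all 7 of its alternatives. Leaving a replicate out means using the list of the other one, and support then means overlap with the other replicate. Over both such lists the number was 174 to 261, the supported share 53.6% to 81.0%, the median percentile 32.7 to 34.3, the density 6.31 to 9.46 per Mb, the X to autosome ratio 0.0970 to 0.117, the first-intron share 19.0% to 19.9%, the share with a promoter peak at the host 20.7% to 26.1%, the G and C difference 6.93 to 9.65 percentage points and the GAGAG share 14.2% to 14.4%. In the stronger 50% of the list the number was 103, the supported share 90.3%, the density 3.73 and the host promoter share 11.7%. Reciprocal overlap of 50% gave a supported share of 30.2%. Excluding no margin around small RNA genes gave a density of 14.4. The host promoter share was 24.3% with 500 bp upstream, and the first-intron share 11.6% with 2000 bp upstream and 500 bp downstream. Windows of 25 and 100 bp to each side gave a G and C difference of 8.82 and 3.73 and a GAGAG share of 7.40% and 29.0%, against 5.33% and 23.7% in flanks. Chosen after seeing the data, leaving out windows with repeated 50-base stretches gave a median percentile of 29.6 and a host promoter share of 35.5%. The cause was not tested for any of these, beyond the fewer peaks that shorter lists hold. The X to autosome ratio stayed between 0.0970 and 0.169 under all 12 of its alternatives. No paired analysis was possible because the series holds 1 group. With read depth unknown, the absence of a peak does not show the absence of binding.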

Other observations

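Intronic peaks with neither GAGACC nor GGCGCA near the summit had recurring strings too, described here with no test because they were picked from these windows. The most frequent string of 8 letters among these 178 was CTACAGTA, in 30 of them (16.9%). Its share was higher over all intronic windows, 68 of 338 (20.1%), so it was not particular to windows without these words. It was in 5.47% of flanks, 2.68% of tiled eligible intron and 7.09% of promoter summits. AGTTTTCG was in 22 of the 178 (12.4%), 1.78% of flanks and 1.53% of promoter summits, and GGGACCCA in 13 (7.30%), 1.33% and 1.28%. GGGACCCA differs by a single letter from GAGACCCA, which holds GAGACC. AGTTTTCG also stands before GAGACC in the spds-1 stretch printed above. Whether windows with these strings hold variants of the first word was not tested. Of the 178 windows, 124 held no repeated stretch of 50 bases.

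The 14 intronic peaks with exactly 2 copies of GAGACC on 1 strand within 150 bp stood in 14 genes, and 10 of these had a promoter peak. The host had one for 4 of the 46 array peaks, 30 of the 102 with 1 copy, 58 of the 176 with none and 30.2% of all intronic peaks. The groups were chosen after their values were seen.

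In 25 intronic peaks (7.40%, against 4.46% of the whole list) the combined signal was under 50. A peak of both replicates overlapped 6 of these, and each of the 6 lay 199 to 211 bp from another summit of the combined list. In frpr-10 and uso-1 that replicate peak was the one that also overlapped a stronger summit of the same gene, so replicate support of such weak summits can belong to the neighbour.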
